A study of Mus musculus with 12 samples.

Results

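The genes described here are 27 genes of cholesterol synthesis and of its regulation by the transcription factor SREBP2, chosen by name from the gene names on the arrays, with older names included (Sc4mol for Msmo1). All 27 were measured, by 58 probes in all, out of 16733 genes tested. RNA came from peritoneal macrophages of 10-week-old female mice, collected 96 h after injection of thioglycollate, then kept overnight in medium with 10 µg/ml of cholesterol. One 1-colour Agilent array was hybridised per sample, in 4 groups of 3 arrays. The groups were C57BL/6 cells with apoA-I, C57BL/6 control cells, MyD88-null (MyD88-/-) cells with apoA-I and MyD88-null control cells, and the study ran them as 3 experiments, each with 1 array of every group. Treated cells received apoA-I at 10 µg/ml for 2 h, in medium with polymyxin B, an agent that binds endotoxin, at 25 µg/ml, and control cells had the same medium without apoA-I. All 12 samples were cholesterol-loaded, so no comparison here sets loaded against unloaded cells. The sources used here do not say which null allele was carried, how many mice stood behind a sample or whether mice were pooled. The p-values therefore rest on a spread between samples that could be partly technical.

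ApoA-I, the chief protein of HDL particles, takes up cholesterol that cells export through the transporter ABCA1, and MyD88 is an adaptor used by Toll-like receptors. Cholesterol is built from acetyl-CoA through mevalonate, the isoprenoid diphosphates, squalene and lanosterol. When membranes of the endoplasmic reticulum are poor in sterol, the escort protein Scap carries SREBP2, the product of Srebf2, to the Golgi, where it is cut into an active transcription factor that raises nearly every enzyme of the route. When sterol is plentiful, Insig1 and Insig2 hold Scap back, and Insig1 is itself a target of SREBP, so its mRNA is widely used as a readout of the pathway in macrophages and other cells.

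Levels below are log2 of the processed spot signal over the 75th percentile of the same array, from the brightest probe of each gene, and differences are differences of these levels. The probes used were well above background on all 12 arrays and none was saturated. In bulk RNA, fewer cells expressing a gene and less of its RNA per cell cannot be told apart. The 75th percentile of the processed signal ran from 199.5 to 1408, and 57.5% to 73.6% of probes were well above background. MyD88-null apoA-I replicate 1 stood apart, with the lowest 75th percentile and the highest share above background, against 325.0 to 1408 and 57.5% to 67.1% on the other arrays. The free-text descriptions of C57BL/6 control replicate 2, which mentions the apoA-I step, and of MyD88-null apoA-I replicate 2, which omits it, go against their titles, and the titles were followed. The Myd88 probe read 2.43 to 3.25 in MyD88-null apoA-I cells and 1.40 to 2.10 in MyD88-null control cells, against 3.41 to 4.30 in C57BL/6 apoA-I cells and 2.96 to 3.49 in C57BL/6 control cells. It was lower in the null cells at each treatment but above background, and the sources used here do not say whether it lies in the deleted part. The 7 macrophage markers listed were all above background, with a summed signal of 563 to 1287 times the 75th percentile on the 12 arrays.

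Insig1 was the member with the clearest response to apoA-I. Its level was 1.46, 1.29 and 1.20 in C57BL/6 apoA-I cells of experiments 1, 2 and 3, against 0.93, 0.90 and 0.56 in C57BL/6 control cells. It was 0.97, 0.95 and 0.91 in MyD88-null apoA-I cells, against 0.49, 0.29 and 0.61 in MyD88-null control cells. Every apoA-I value lay above every control value of the same genotype. The difference was 0.52 in C57BL/6 cells (SE 0.18, 95% interval 0.11 to 0.92) and 0.48 in MyD88-null cells (SE 0.18, 95% interval 0.08 to 0.89), or 1.43-fold and 1.40-fold, and neither passed on its own (limma with Benjamini-Hochberg adjustment, adjusted p = 0.424 and 0.445). Over both genotypes together Insig1 was higher by 0.50 with apoA-I (SE 0.13, 95% interval 0.21 to 0.79, 1.41-fold), by 0.51, 0.53 and 0.46 in the 3 experiments. This missed the threshold of 0.05 when arrays were treated as unpaired (limma adjusted p = 0.0760) and passed it with the experiment as a block (SE 0.11, limma adjusted p = 0.0217). The call with the block was lost when any 1 of 5 arrays was left out, as listed with the alternatives at the end, and when both arrays with conflicting descriptions were left out (0.52, limma adjusted p = 0.103). A second Insig1 probe, dimmer on average, gave 0.43 in C57BL/6 cells and 0.33 in MyD88-null cells. With arrays scaled on their median instead, the difference over both genotypes was 0.24, beside a shift of -0.21 in the median of all genes. Within slides that held both treatments, Insig1 was higher with apoA-I by 0.39 and 0.53 in C57BL/6 cells (slides 1 and 2) and by 0.69 and 0.29 in MyD88-null cells (slides 3 and 5), with 1 array of each treatment per slide. The pair on slide 3 crossed experiments, setting MyD88-null apoA-I replicate 1, the array that stood apart, against MyD88-null control replicate 2. The Insig1 probe lies at chr5:27110161-27110220 in the mm7 coordinates of the files.

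**Figure D1:**
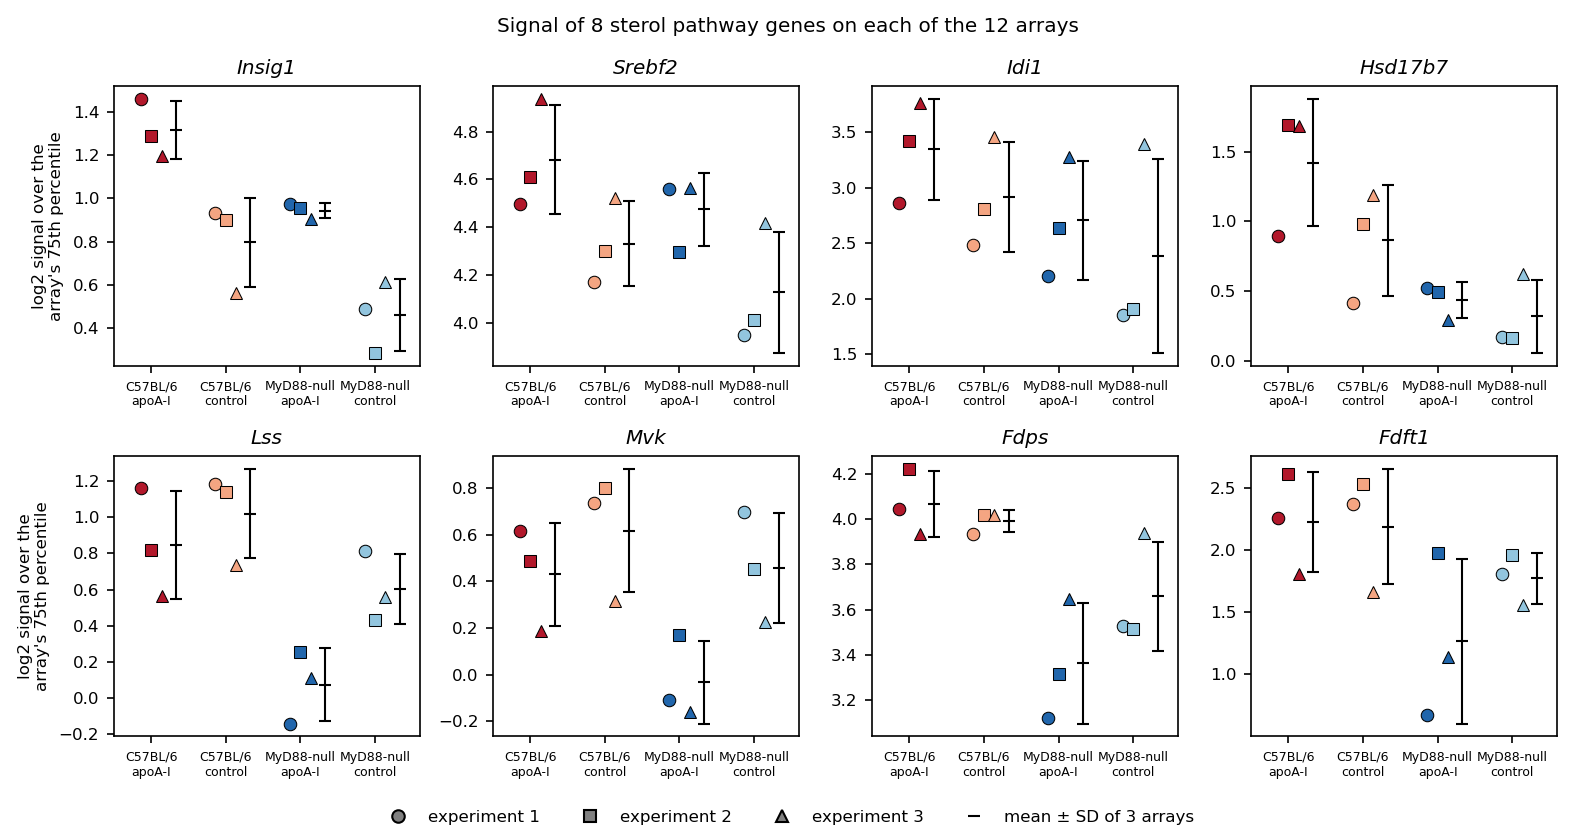
Level of 8 of the 27 genes on each of the 12 arrays (y axis, log2 signal over the 75th percentile of the array), with marker shape for the experiment and bars for the mean ± SD of 3 arrays. Insig1 separates apoA-I from control cells within each genotype (0.91 to 0.97 against 0.29 to 0.61 in MyD88-null cells), while Lss and Fdps are lower in MyD88-null apoA-I cells than on every C57BL/6 array.

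Srebf2, which encodes the SREBP2 precursor, had levels of 4.50, 4.61 and 4.94 in C57BL/6 apoA-I cells, against 4.17, 4.30 and 4.52 in C57BL/6 control cells. In MyD88-null cells it had 4.56, 4.30 and 4.57 with apoA-I, against 3.95, 4.01 and 4.42 in controls. ApoA-I was the higher of the pair in each of the 6 pairs of arrays from the same experiment, but the groups overlapped in both genotypes. The difference was 0.35 in C57BL/6 cells (SE 0.21), 0.35 in MyD88-null cells (SE 0.21) and 0.35 over both (SE 0.15, 95% interval 0.02 to 0.68), which did not pass (limma adjusted p = 0.344, and 0.0564 with the experiment block). Srebf2 has 2 further probes that were above background on all arrays, and they gave 0.28 and 0.45 in C57BL/6 cells and 0.05 and 0.41 in MyD88-null cells.

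Insig2, the paralogue of Insig1, did not follow it. Its levels were 1.63, 1.82 and 2.18 in C57BL/6 apoA-I cells against 1.74, 1.83 and 1.99 in C57BL/6 controls. They were 0.92, 1.47 and 2.29 in MyD88-null apoA-I cells against 1.67, 1.97 and 2.35 in MyD88-null controls. The values spread more between experiments than between treatments, with the third experiment highest in each group. Scap, the escort protein, stayed between 3.48 and 3.95 on all 12 arrays, with differences of 0.09 in C57BL/6 cells and -0.03 in MyD88-null cells.

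The promoters of Insig1 and Srebf2, the regulators with positive differences in both genotypes, and of Hmgcs1, a synthesis enzyme, are shown so that the letters behind the motif counts below can be read. Each is the 250 bases before the annotated start, from RefSeq on GRCm38.p6 and on the plus strand, at chr5:28071162-28071411 for Insig1, chr15:82147019-82147268 for Srebf2 and chr13:119690101-119690350 for Hmgcs1. Capitals mark the NF-Y box CCAAT, read here on the opposite strand as ATTGG, and the core sterol regulatory element TCACNCCAC.
Insig1: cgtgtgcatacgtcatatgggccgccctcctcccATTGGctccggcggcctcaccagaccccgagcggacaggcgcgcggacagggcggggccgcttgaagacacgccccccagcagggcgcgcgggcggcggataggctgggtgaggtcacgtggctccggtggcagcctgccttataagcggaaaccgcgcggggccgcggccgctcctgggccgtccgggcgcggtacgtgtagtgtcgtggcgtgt
Srebf2: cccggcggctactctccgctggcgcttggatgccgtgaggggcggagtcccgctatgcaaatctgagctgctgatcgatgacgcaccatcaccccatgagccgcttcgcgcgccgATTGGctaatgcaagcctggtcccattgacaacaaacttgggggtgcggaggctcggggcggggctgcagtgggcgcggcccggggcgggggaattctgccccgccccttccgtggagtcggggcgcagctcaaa
Hmgcs1: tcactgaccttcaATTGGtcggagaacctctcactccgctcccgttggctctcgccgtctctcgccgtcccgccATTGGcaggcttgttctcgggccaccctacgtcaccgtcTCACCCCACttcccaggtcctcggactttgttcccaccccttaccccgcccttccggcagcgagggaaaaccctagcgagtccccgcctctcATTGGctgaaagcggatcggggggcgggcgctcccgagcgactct

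Of the 27 genes, 22 had a promoter entry. In windows from 250 bases before to 50 after the start, read on both strands, 20 of these 22 genes (90.9%) held CCAAT, against 41.1% of 27025 genes with an entry, and 20 held GGGCGG, the Sp1 box, against 38.2% of genes. CACGTG, the E-box, was in 5 of 22 (Dhcr7, Hsd17b7, Insig1, Sc5d and Scap), or 22.7%, against 8.09% of genes. TCACNCCAC was in Hmgcs1 alone among the 22, starting 137 bases before its start, against 1.44% of all genes. NF-Y and Sp1 are known partners of SREBP on DNA. These are matches of letters, not measured binding sites, and a window without a match says nothing about a factor's binding. With 20 of 22 genes holding each of CCAAT and GGGCGG, these boxes cannot sort the members by their response. Insig1, with a positive difference, and Lss and Mvk, with negative ones, all held both.

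Across the 27 genes, 0 passed in C57BL/6 cells and 0 in MyD88-null cells, where 0.831% and 1.14% of all genes passed (limma adjusted p under 0.05). Over both genotypes 0 of 27 passed, against 3.14% of all genes. With the experiment block 0 of 27 passed in each genotype alone, against 3.41% and 4.08% of all genes, and 1 of 27, Insig1, passed over both, against 11.5%. One called gene of 27 is 3.70%, so the pathway as listed was not called more often than genes at large. The median difference of the 27 genes was 0.06 in C57BL/6 cells (range -0.19 to 0.56, 18 positive) and -0.12 in MyD88-null cells (range -0.53 to 0.48, 10 positive), where the medians of all genes were 0.00 and 0.05. Without MyD88-null apoA-I replicate 1 the MyD88-null median was -0.01. Here and below, such values without a block keep all 3 arrays of the other groups, so the experiments are not balanced in them. Groups did not overlap for 2 members that were higher with apoA-I in C57BL/6 cells (Insig1 and Cyp51), against 6.76% of all genes. In MyD88-null cells they did not overlap for 1 that was higher (Insig1), against 6.28%, and for 2 that were lower (Lss and Mvk), against 5.35%. In data simulated on these arrays for the C57BL/6 comparison, over 16733 genes, 10% of changes of 1 on the log2 scale and 52% of changes of 2 were called, and the 27 differences were all below 1 in size. The simulation changed 50 genes at each size, drawn from genes of all levels. Its arrays varied independently, without an experiment effect, so the rates are only a rough guide for these 27 genes and do not cover the fit with the block.

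**Figure D2:**
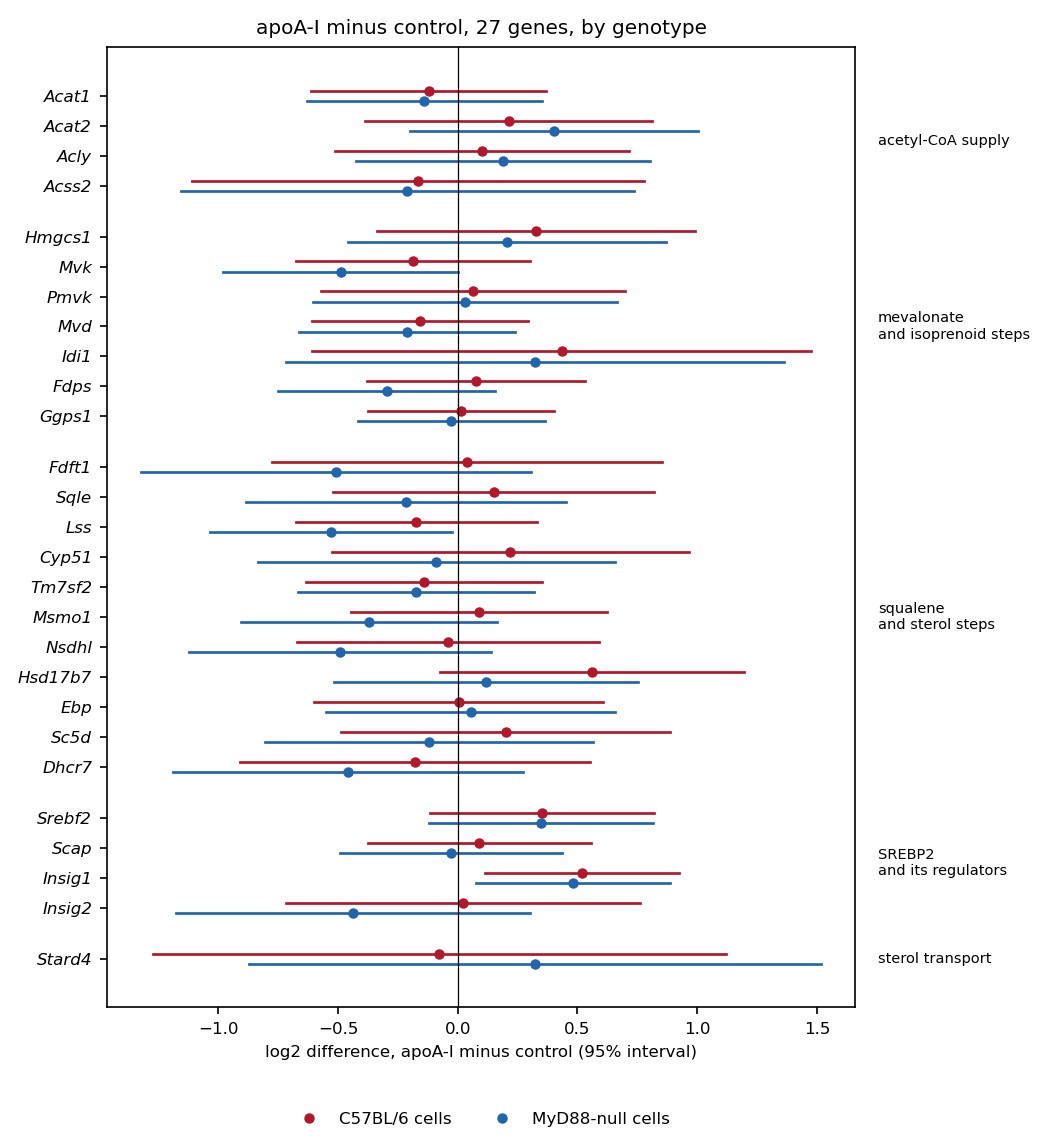
Difference between apoA-I and control cells for each of the 27 genes (x axis, log2 difference with its 95% interval), in C57BL/6 cells and in MyD88-null cells, grouped by role. Insig1 is positive in both genotypes (0.52 and 0.48), and in the squalene and sterol steps the MyD88-null values lie left of the C57BL/6 values for 10 of 11 genes.

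In the mevalonate and isoprenoid steps, which take HMG-CoA precursors to the farnesyl and geranylgeranyl diphosphates, 0 of 7 genes passed in any of the apoA-I comparisons, and the median difference was 0.06 in C57BL/6 cells and -0.03 in MyD88-null cells. Idi1, the isopentenyl diphosphate isomerase, had 2.86, 3.42 and 3.76 in C57BL/6 apoA-I cells against 2.48, 2.80 and 3.45 in C57BL/6 controls. In MyD88-null cells it had 2.21, 2.64 and 3.27 with apoA-I against 1.85, 1.90 and 3.39 in controls. It was higher with apoA-I in 5 of the 6 pairs of arrays, and its differences were 0.43 and 0.32 (SE 0.47 each), 0.38 over both genotypes (SE 0.33, limma adjusted p = 0.755, and 0.138 with the experiment block). A second, dimmer Idi1 probe gave larger differences, 0.74 in C57BL/6 cells, 0.41 in MyD88-null cells and 0.57 over both, and did not pass either (limma adjusted p = 0.165 over both, with every probe tested on its own). Mvk, mevalonate kinase, ran the other way, with 0.62, 0.49 and 0.19 in C57BL/6 apoA-I cells against 0.74, 0.80 and 0.31 in C57BL/6 controls. In MyD88-null cells Mvk had -0.11, 0.17 and -0.16 with apoA-I against 0.70, 0.45 and 0.22 in controls, groups that did not overlap. Its differences were -0.19 in C57BL/6 cells and -0.49 in MyD88-null cells (SE 0.22 each, limma adjusted p = 0.579 in MyD88-null cells, and 0.0982 with the block). A second Mvk probe, slightly dimmer on average, gave -0.03 in C57BL/6 cells and -0.22 in MyD88-null cells. The remaining 5 genes of these steps (Hmgcs1, Pmvk, Mvd, Fdps and Ggps1) had differences of -0.16 to 0.33 in C57BL/6 cells and -0.30 to 0.21 in MyD88-null cells. Much dimmer Hmgcs1 probes disagreed with each other, with 0.57 and -0.64 in C57BL/6 cells and -0.04 and 0.28 in MyD88-null cells.

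In the squalene and sterol steps 0 of 11 genes passed, and the median difference was 0.04 in C57BL/6 cells and -0.22 in MyD88-null cells (-0.14 without MyD88-null apoA-I replicate 1). Hsd17b7, a reductase that acts while methyl groups are taken off the sterol ring, had the largest positive difference of the 27 genes in C57BL/6 cells. It read 0.89, 1.69 and 1.68 in C57BL/6 apoA-I cells against 0.42, 0.98 and 1.19 in C57BL/6 controls, a difference of 0.56 (SE 0.29, limma adjusted p = 0.799). In MyD88-null cells it read 0.52, 0.50 and 0.29 with apoA-I against 0.17, 0.16 and 0.62 in controls, with a difference of 0.12. Apart from the third experiment in MyD88-null cells, each apoA-I array was above its own control.

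Lss, lanosterol synthase, which closes the sterol rings, had 1.16, 0.82 and 0.56 in C57BL/6 apoA-I cells against 1.18, 1.14 and 0.74 in C57BL/6 controls. It had -0.14, 0.26 and 0.11 in MyD88-null apoA-I cells against 0.81, 0.43 and 0.56 in MyD88-null controls. All 6 pairs had the lower value with apoA-I, and the MyD88-null groups did not overlap. The differences were -0.17 and -0.53 (SE 0.23 each, limma adjusted p = 0.548 in MyD88-null cells). Dhcr7, the reductase of the last step to cholesterol, had 2.89, 2.49 and 3.21 in C57BL/6 apoA-I cells against 2.99, 3.02 and 3.12 in C57BL/6 controls. In MyD88-null cells it had 2.91, 2.39 and 3.62 with apoA-I against 3.20, 3.23 and 3.87 in controls. Its groups overlapped in both genotypes, with differences of -0.18 and -0.46 (SE 0.33 each).

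Fdft1, squalene synthase, and Nsdhl and Msmo1, enzymes that remove methyl groups from the sterol ring, had negative differences in MyD88-null cells and differences near 0 in C57BL/6 cells. Fdft1 had 2.26, 2.62 and 1.81 in C57BL/6 apoA-I cells against 2.37, 2.53 and 1.66 in C57BL/6 controls, and 0.67, 1.98 and 1.14 in MyD88-null apoA-I cells against 1.81, 1.96 and 1.56 in MyD88-null controls. Its second probe, about 3.54 lower in level, disagreed, with a difference of 1.67 in MyD88-null cells where the brighter probe gave -0.51 (SE 0.37). Nsdhl had -0.05, -0.33 and 0.04 in C57BL/6 apoA-I cells against -0.03, -0.25 and 0.04 in C57BL/6 controls, and -1.11, -0.84 and -0.19 in MyD88-null apoA-I cells against -0.43, -0.49 and 0.24 in MyD88-null controls. Msmo1 had 4.95, 4.94 and 5.00 in C57BL/6 apoA-I cells against 4.81, 4.97 and 4.85 in C57BL/6 controls, and 3.95, 4.46 and 4.81 in MyD88-null apoA-I cells against 4.66, 4.57 and 5.10 in MyD88-null controls. For Nsdhl and Msmo1 each MyD88-null apoA-I array was below the control of its own experiment, with differences of -0.69, -0.35 and -0.44 for Nsdhl. Without MyD88-null apoA-I replicate 1 the MyD88-null differences were -0.21 for Fdft1, -0.29 for Nsdhl and -0.14 for Msmo1, against -0.51, -0.49 and -0.37 with it. These values set experiments 2 and 3 with apoA-I against controls of all 3 experiments. For Nsdhl the pairs of experiments 2 and 3 gave -0.35 and -0.44, both further from 0 than -0.29.

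The acetyl-CoA enzymes and the sterol carrier showed no called change. Acat2, a thiolase that joins acetyl-CoA units, had -0.11, -0.01 and 0.09 in C57BL/6 apoA-I cells against -0.07, -0.01 and -0.59 in C57BL/6 controls, and 0.29, -0.32 and 0.49 in MyD88-null apoA-I cells against -0.24, -0.58 and 0.07 in MyD88-null controls. Acly, ATP citrate lyase, had 1.56, 1.43 and 2.21 in C57BL/6 apoA-I cells against 1.51, 1.48 and 1.92 in C57BL/6 controls, and 2.06, 1.31 and 1.60 in MyD88-null apoA-I cells against 1.34, 1.37 and 1.69 in MyD88-null controls. Stard4, which carries cholesterol between membranes, had 0.96, 0.68 and 2.27 in C57BL/6 apoA-I cells against 0.93, 0.93 and 2.28 in C57BL/6 controls, and 1.63, 0.62 and 1.33 in MyD88-null apoA-I cells against 0.49, 0.47 and 1.63 in MyD88-null controls. For all 3 genes the groups overlapped in both genotypes, and Stard4 differed more between the third experiment and the others than between treatments in C57BL/6 cells. The other Stard4 probes, dimmer but above background on all arrays, gave 0.50 and 0.57 with apoA-I in C57BL/6 cells, where the probe used gave -0.08. In MyD88-null cells they gave 0.09 and 0.20, where the probe used gave 0.32.

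Whether the apoA-I response depended on MyD88 was tested as the difference of the responses, MyD88-null minus C57BL/6. None of the 27 genes passed, with or without the experiment block, and 0 of all 16733 genes passed either (limma, 0% of genes in both fits; 0 of the 27 and 196 of all genes had an unadjusted p under 0.05 without the block, and 0 and 1232 with it). Insig1 had -0.04 (SE 0.26, 95% interval -0.61 to 0.54), an interval that reaches further from 0 on both sides than the C57BL/6 response of 0.52. The differences were negative for 23 of the 27 genes, with a median of -0.12 where the median of all genes was 0.05. The lowest were Fdft1 at -0.55 (SE 0.52), Insig2 at -0.46 (SE 0.47) and Msmo1 at -0.46 (SE 0.34), and the highest were Stard4 at 0.40 (SE 0.76), Acat2 at 0.19 and Acly at 0.09. Without MyD88-null apoA-I replicate 1 they were -0.25 for Fdft1, -0.14 for Insig2, -0.23 for Msmo1, 0.18 for Stard4, 0.12 for Acat2 and -0.11 for Acly. The values thus shifted without that array, and Acly changed sign. They also differed by probe, since the second Fdft1 probe gave 1.65, the second Insig2 probe -0.08 and the other Stard4 probes -0.41 and -0.37, all above background on the 12 arrays. In the squalene and sterol steps 10 of 11 values were negative and the median was -0.36, or -0.23 without that array. All 27 values share the same 12 arrays, so their common sign is not 27 independent observations,.

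The second question the design holds is whether the sterol genes differed between genotypes. In apoA-I-treated cells 23 of the 27 genes were lower on average in MyD88-null than in C57BL/6 cells, with a median difference of -0.37, a range of -0.99 to 0.16 and a median of all genes of 0.07. None passed (0 of 27, against 0.0657% of all genes, and 0 with the block, against 0.227%), and 5 of 27 had an unadjusted p under 0.05, against 3.93% of all genes. With the block 12 of 27 did, against 13.5%. For 8 of 27 genes, or 29.6%, every MyD88-null value lay below every C57BL/6 value, against 2.41% of all genes. These were Hmgcs1, Mvk, Fdps, Lss, Cyp51, Msmo1, Hsd17b7 and Insig1, and no member had groups that were higher without overlap. Without MyD88-null apoA-I replicate 1 the count was 9 of 27, against 6.72% of all genes, and the median difference was -0.33. Without both arrays whose descriptions conflict it was 9 of 27, against 6.98%, and the median was -0.38. MyD88-null apoA-I replicate 1 and MyD88-null control replicate 2 shared slide 3 and a scan day with no C57BL/6 array. Genotype was thus not balanced over slides or scan days. Within slides 1 and 5, each with 1 array of both apoA-I groups, the median genotype difference of the 27 genes was -0.33 and -0.19.

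Hsd17b7 had 0.52, 0.50 and 0.29 in MyD88-null apoA-I cells against 0.89, 1.69 and 1.68 in C57BL/6 apoA-I cells, a difference of -0.99 (SE 0.29, 95% interval -1.62 to -0.35). Lss had a difference of -0.77 (SE 0.23, 95% interval -1.28 to -0.27). Its dimmest probe gave a much smaller negative difference, while its other further probe gave a similar value. Fdps, farnesyl diphosphate synthase, at the branch to sterols and to prenyl groups, had 3.12, 3.32 and 3.65 in MyD88-null apoA-I cells against 4.05, 4.22 and 3.93 in C57BL/6 apoA-I cells, a difference of -0.71 (SE 0.20). A second, dimmer Fdps probe did not show it, with 0.12. Cyp51, the lanosterol demethylase, had 0.23, 1.17 and 1.49 in MyD88-null apoA-I cells against 1.71, 1.72 and 1.64 in C57BL/6 apoA-I cells, a difference of -0.73 (SE 0.34). Its value rested much on MyD88-null apoA-I replicate 1, since it was -0.36 without that array, and likewise Msmo1 had -0.56 with it and -0.33 without. With the scan day as a block Cyp51 had -0.48 and Msmo1 -0.42, and with the slide as a block they had -0.51 and -0.45. Fdps and Cyp51 were chosen for this account after their values were seen. Without a block, the limma adjusted p of the genes in this paragraph was 0.941 to 0.998.

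In control cells the difference was smaller in size. The median was -0.16, 21 of 27 genes were lower in MyD88-null cells, and 0 passed (against 0.0956% of all genes, and 0.592% with the block). Groups did not overlap for 1 member that was lower in MyD88-null control cells (Tm7sf2, a sterol reductase, against 3.48% of all genes) and 1 that was higher (Dhcr7, against 6.85%). Within the experiments the median of the 27 genes was -0.25, -0.39 and 0.04 in control cells and -0.41, -0.33 and -0.19 in apoA-I-treated cells. The third experiment thus gave no lower median in MyD88-null control cells, and its MyD88-null control array held the highest Idi1, Fdps and Cyp51 values of that group.

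**Figure D3:**
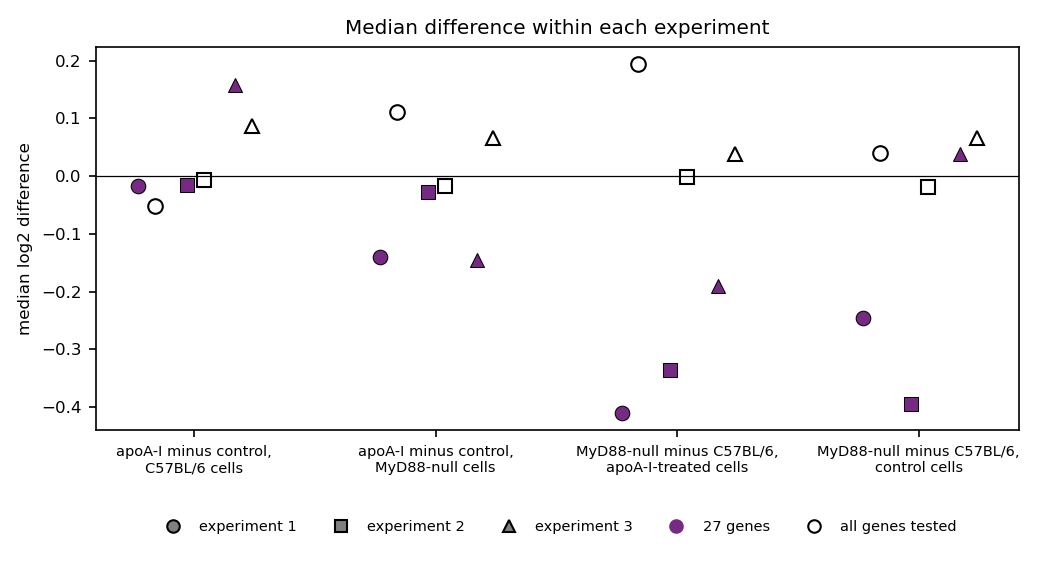
Median log2 difference of the 27 genes (filled markers) and of all genes tested (open markers) within each of the 3 experiments, for the response to apoA-I in each genotype and the genotype difference at each treatment. In apoA-I-treated cells the 27 genes lie below 0 in all 3 experiments (-0.41, -0.33 and -0.19), and in control cells in experiments 1 and 2.

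Averaged over both treatments, 22 of 27 genes were lower in MyD88-null cells, with a median of -0.31. None passed (0 of 27, against 0.263% of all genes, and 0 with the block, against 2.13%), and 7 of 27, all lower in MyD88-null cells, had an unadjusted p under 0.05, against 6.93% of all genes. With the block 12 of 27 did, against 17.7%. Hsd17b7 was nearest to the threshold at -0.77 (SE 0.20, limma adjusted p = 0.266, and 0.0528 with the block), followed by Lss at -0.59, Fdps at -0.52, Idi1 at -0.58 and Fdft1 at -0.69 (block limma adjusted p = 0.0743 to 0.0955). These values rested in part on the probe used. Dimmer probes of Fdps and Fdft1, above background on all arrays, gave 0.02 and 0.18 instead. The dimmest Lss probe gave a much smaller negative difference, while the other further Lss probe gave a similar value. Dimmer probes of Hsd17b7 and Idi1 were also negative, at -0.59 and -0.51, and did not pass (limma adjusted p = 0.868 and 0.579, with every probe tested on its own). Insig1 had a genotype difference of -0.35 (SE 0.13), which did not pass (limma adjusted p = 0.538, and 0.146 with the block). Its values in MyD88-null apoA-I cells (0.91 to 0.97) were near those of C57BL/6 control cells (0.56 to 0.93).

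**Figure D4:**
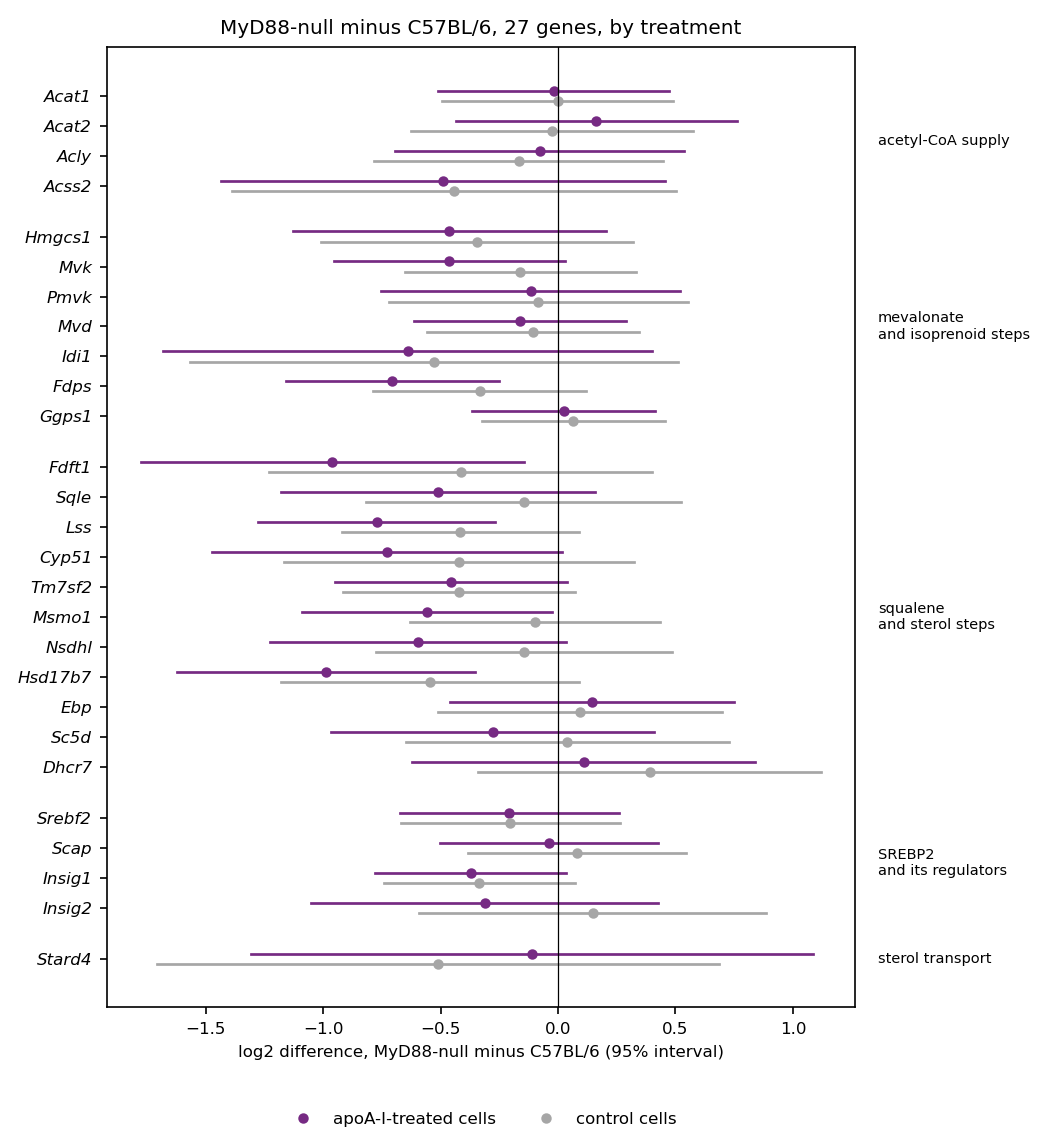
Difference between MyD88-null and C57BL/6 cells for each of the 27 genes (x axis, log2 difference with its 95% interval), in apoA-I-treated and in control cells, grouped by role. In apoA-I-treated cells 9 of 11 squalene and sterol genes lie below 0, with Hsd17b7 lowest at -0.99, while the acetyl-CoA genes lie between -0.49 and 0.16.

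In apoA-I-treated cells the median genotype differences were -0.56 for the 11 squalene and sterol genes, -0.46 for the 7 mevalonate and isoprenoid genes, -0.26 for the 4 genes of SREBP2 and its regulators and -0.05 for the 4 acetyl-CoA genes. Without MyD88-null apoA-I replicate 1 they were -0.36, -0.36, -0.12 and -0.12 in the same order. With all arrays, Ebp, the sterol isomerase, and Dhcr7 were the exceptions among the sterol genes, with 0.14 and 0.11. Without MyD88-null apoA-I replicate 1, Ebp had -0.03 and Dhcr7 had 0.14. A dimmer Dhcr7 probe gave a slightly negative difference with all arrays. These roles were not tested against each other.

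Some marker lists moved with genotype or with apoA-I as well. The 6 mesothelial cell and fibroblast markers, all above background, instead varied widely between arrays of the same group. They summed to 81.1 to 242 in C57BL/6 apoA-I cells and 64.6 to 225 in C57BL/6 control cells, in units of the 75th percentile. In MyD88-null cells they summed to 63.2 to 192 with apoA-I and 52.7 to 227 in controls. The 7 macrophage markers had a median genotype difference of -0.44 over both treatments, against -0.31 for the 27 genes, with 5 of 7 negative. With the block 1 of 7 passed as lower, against 2.13% of all genes in either direction. Their summed signal overlapped between genotypes at each treatment. It was 718 to 1287 in MyD88-null apoA-I cells against 768 to 929 in C57BL/6 apoA-I cells. In control cells it was 629 to 745 in MyD88-null and 563 to 852 in C57BL/6 cells. The summed signal of the B cell markers, 4 of 5 of them above background (Ebf1 was not), was 4.07 to 7.31 in MyD88-null apoA-I cells and 4.43 to 5.12 in MyD88-null control cells, against 7.71 to 8.51 in C57BL/6 apoA-I cells and 7.50 to 8.80 in C57BL/6 control cells, in units of the 75th percentile. The 4 mast cell markers, all above background, summed to 0.95 to 1.50 in MyD88-null apoA-I cells and 0.96 to 1.57 in MyD88-null control cells, against 1.81 to 2.33 in C57BL/6 apoA-I cells and 1.68 to 2.27 in C57BL/6 control cells. For the B cell and mast cell lists the MyD88-null and C57BL/6 arrays did not overlap at either treatment, and the part of these lists in the genotype differences of the sterol genes was not tested. The 3 dendritic cell markers, all above background, had a median response to apoA-I of 1.01 in C57BL/6 cells and 0.88 in MyD88-null cells. Their summed signal was 0.73 to 2.56 in C57BL/6 apoA-I cells against 0.39 to 1.69 in C57BL/6 control cells, and 0.82 to 2.61 in MyD88-null apoA-I cells against 0.33 to 1.75 in MyD88-null control cells. These ranges overlapped. The 5 T cell markers had a median response of 0.23 in C57BL/6 cells and 0.58 in MyD88-null cells, and 2 of 5 passed as higher over both genotypes with the block, against 11.5% of all genes. Their summed signal was 0.94 to 1.97 in C57BL/6 apoA-I cells against 0.76 to 1.58 in C57BL/6 control cells, and 1.09 to 2.61 in MyD88-null apoA-I cells against 0.73 to 1.60 in MyD88-null control cells. The part of these lists in the Insig1 response was not tested.

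The neighbouring pathways were read from lists of genes. Among 12 measured genes of SREBP processing and degradation, 11 other sterol-responsive genes and 11 genes of isoprenoid use outside sterols, 0 passed in any of the 7 comparisons, with or without the block, where 0% to 3.14% of all genes passed without it and 0% to 11.5% with it. Their median differences in MyD88-null apoA-I cells against C57BL/6 apoA-I cells were 0.06, -0.03 and -0.07, against -0.37 for the 27 synthesis genes. Fatty acid synthesis, the branch driven mostly by the related factor SREBP1, also lay low in MyD88-null cells. Its 12 genes had a median of -0.56 in apoA-I-treated cells and -0.57 in control cells, with 11 of 12 negative in each. Without the block 0 of 12 passed in any of the 7 comparisons. With the experiment block, and averaged over treatments, 4 of 12 passed as lower in MyD88-null cells, against 2.13% of all genes: Scd1, which makes monounsaturated fatty acids, at -1.30 (SE 0.12, block limma adjusted p = 0.00182), Elovl6, an elongase, at -0.87 (0.00881), Fasn, fatty acid synthase, at -0.65 (0.0304) and Scd2 at -0.94 (0.0326). With apoA-I over both genotypes, Lpin1, a phosphatidate phosphatase, was at -1.18 (SE 0.27, block limma adjusted p = 0.0264) and Acsl3, an acyl-CoA synthetase, at -0.46 (SE 0.12, 0.0392), and these 2 of 12 passed as lower with the block, against 11.5% of all genes.

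Some of the 27 genes varied together from array to array and others in opposite directions, as a description. Over the 351 pairs of members the median Pearson correlation across the 12 arrays was 0.27, with 27.4% of pairs above 0.5, against a median of 0.01 and 17.1% of pairs over 1000 evenly spaced genes, and 88 of the 351 pairs were below 0. On deviations from the group means, which leave out group differences, the values were 0.23 and 31.6% for members, against 0.02 and 22.7%, with 124 of 351 pairs below 0 and a lowest value of -0.93. All pairs share the same arrays, scaling and experiments. Idi1 and Sc5d, a sterol desaturase, followed the other members most closely on these deviations, with median correlations of 0.64 and 0.56, while Mvk, at -0.53, ran against them. The median for Insig1 was 0.01, with members on both sides, from 0.74 for Acss2 and 0.72 for Lss to -0.61 for Tm7sf2 and -0.55 for Hmgcs1.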

How the data were processed

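The 27 genes, the gene lists and the motifs were chosen with earlier results of these data known. Per the file headers, the authors' scanner files hold spot intensities from Agilent Feature Extraction (9.5 per the submitters' processing notes, 9.5.1.1 and 9.5.3.1 per the headers), with gProcessedSignal already background-corrected. The authors' deposited value table followed log10 of that signal (correlations 0.993 to 1.00 per array), served only as an alternative, and its normalization and centring are not given in the sources used here. From the intensities, log2 values minus each array's 75th percentile were computed, without outlier-flagged spots. A probe was kept where every array of some group read it as well above background (24337 of 41174), and the brightest probe stood for each of 16733 genes. One limma model (limma 3.58.1, R 4.3.3) with 4 group means over 12 arrays (8 residual and 2.16 prior degrees of freedom) gave 7 comparisons, two-sided, with Benjamini-Hochberg adjustment over all genes and a threshold of 0.05. The number of arrays limits the precision. The gene tests were checked on simulated data.

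Arrays of the same experiment number deviated from their group means together (correlation 0.30 to 0.86 over 18 pairs, median 0.61), against a median of -0.40 over 36 pairs of different numbers. Deviations from a mean of 3 arrays cancel out within a group, which by construction lowers the values for different numbers. Pairs of numbers 1 and 2 ran from -0.16 to 0.55, and pairs of number 3 with another number from -0.81 to -0.07. The part of scan day in this contrast was not tested. The numbers were taken to pair the samples, given the design of 3 experiments. Values with the experiment as a block stand beside results whose call they change. Per-array values are given for members that passed in any comparison and for the 3 highest and 3 lowest differences in each genotype and in the difference of the responses. Scan days followed the experiments in part, with the third experiment on a day of its own and only MyD88-null arrays on the second day.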

Additional observations from a re-analysis of the deposited data

How the results depend on the processing

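Of the 27 genes, only Insig1 changed its call with the replicate block, in the apoA-I comparison over both genotypes, and the block changed no other call among them. The fits that combine the block with another choice, or with a left-out array, were chosen after seeing the data. In that comparison the number of genes past the threshold was 0 without a block, 1 with the replicate block or the scan day as a block, and 1 with the replicate block under quantile normalization, normexp background correction or the deposited values (Insig1, limma adjusted p = 0.0119 to 0.0308). It was 0 with the block and median scaling (0.418), and with the slide as a block Insig1 had a limma adjusted p of 0.0744. With the block and 1 array left out, the count was 0 to 2 and Insig1 passed in 7 of 12 fits. It missed the threshold without C57BL/6 apoA-I replicate 1 (0.0502) or 2 (0.0714), MyD88-null apoA-I replicate 2 (0.0602), or MyD88-null control replicate 1 (0.0576) or 2 (0.0720). The count of 2 came without MyD88-null control replicate 3, where Idi1 also passed at 0.50 (0.0429). With the treatments read from the 2 conflicting descriptions, Insig1 had 0.41 (limma adjusted p = 0.974).

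For genotype over both treatments, where the block alone called 0, it called 2 genes without MyD88-null apoA-I replicate 1 (Tm7sf2 at -0.56 and Hsd17b7 at -0.88), 1 without MyD88-null control replicate 3 (Idi1 at -0.71), 1 with the deposited values (Fdps at -0.59), and 1 with normexp or with median scaling (Hsd17b7 at -0.71 and -0.74). Median scaling, with or without the block, moved the median of the 27 genes to -0.57 for apoA-I in MyD88-null cells, -0.26 over both genotypes, -0.50 for the difference of responses, 0.061 for genotype in control cells and -0.54 in apoA-I-treated cells. It moved the median of all genes to -0.40, -0.21, -0.34, 0.24 and -0.09 in the same comparisons. It turned Acat2 (-0.048) and Srebf2 (-0.10) in MyD88-null cells and the difference of responses of Acat2 (-0.20) and Acly (-0.30). The mean of a gene's probes turned Fdft1 to 0.58 in MyD88-null cells, 0.55 in the difference of responses and 0.023 for genotype in apoA-I-treated cells, and turned Stard4 to -0.13 in the difference of responses. The Insig1 difference of responses, near 0, was 0.013 with quantile normalization, 0.033 with the deposited values (both also with the block) and 0.093 with the slide as a block. With the block it was 0.0052 without C57BL/6 apoA-I replicate 1, 0.081 without C57BL/6 control replicate 3, 0.00028 without MyD88-null apoA-I replicate 1 and 0.11 without MyD88-null control replicate 3. Leaving out each array in turn gave -0.35 to 0.0073 for Dhcr7 in C57BL/6 cells, and, for the difference of responses, -0.049 to 0.88 for Stard4, -0.11 to 0.33 for Acly and -0.12 to 0.082 for Insig1. Except where a value or the construction shows it, the cause was not tested.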
